A study of Mus musculus with 9 samples.

Results

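Whole ovaries of mice that became obese on a high-fat diet (HFOB) were compared with ovaries of chow-fed mice (Control), using the 6 samples of those groups out of the 9 samples of the study. All animals were C57BL/6J, an inbred laboratory strain, aged 15 weeks, with 3 animals in each group. Control mice ate standard chow with 16% fat, and HFOB mice ate a diet with 60% fat for 10 weeks. A further group of 3 mice ate the 60% fat diet for the same time and stayed lean (HFLN), and its values are set beside the comparison because it shares the diet but not the obesity. An animal entered HFOB or HFLN by how it responded to the diet and not by assignment, so obesity and whatever else sorted the animals cannot be told apart. The other components of the diets and the stage of the ovarian cycle were not given in the sources used here.

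The comparison covered 12921 rows of protein-coding genes, 12480 genes in all, each with at least 1 FPKM in either group. FPKM is a level per length: the sequenced fragments of a transcript divided by its length and by the size of the library. Levels given as on chow are those of Control, and values without a group follow the order Control, HFLN and HFOB, or Control and HFOB where a pair is given. The deposited table holds 1 FPKM for each group and a lower and an upper bound, and no value for a single animal. No SD over animals and no p-value can therefore be given, and how many of the 3 animals carried a difference is unknown. The deposited interval between the bounds is the measure of error used throughout, and its confidence level was not given in those sources.

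The ovary houses oocytes inside follicles, where granulosa and theca cells make sex steroids from cholesterol. The surge of luteinizing hormone triggers ovulation through cyclic AMP and the EGF receptor and ERK cascade, which switch on a short-lived set of immediate-early transcription factors and then genes for matrix remodelling and follicle rupture. The same immediate-early genes also respond to growth factors, injury and stress in many cells. Obesity brings more circulating leptin, the hormone of fat cells, and the ovary lies embedded in a fat pad. Cells with enough sterol shut down their own cholesterol synthesis and uptake through the SREBP pathway, while the unfolded protein response and the integrated stress response tune protein folding and translation.

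The label of the tissue was borne out by defining markers. The zona pellucida gene Zp3 stood at 52.2 FPKM on chow and 54.4 in HFOB, and the oocyte growth factor Gdf9 at 51.4 and 56.3. Amh, made by granulosa cells of growing follicles, stood at 181 and 187 FPKM, and the theca enzyme Cyp17a1 at 346 and 191. Levels of the 2 groups were close over the whole table. The median log2 ratio of HFOB to Control, computed as log2((HFOB + 1)/(Control + 1)), was -0.01, with quartiles of -0.10 and 0.08, and 5998 rows were higher in HFOB while 6923 were lower. The middle 95% of rows lay between -0.47 and 0.30. The summed FPKM of the compared rows was 508263 in Control and 476307 in HFOB, and 37.1% of that gap lay in 1 row, Cmss1, whose deposited intervals reached 0 in both groups. Scaling HFOB up to the Control sum would raise each log2 ratio by at most 0.09.

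A row was called when it was at least 2-fold apart on the log2(FPKM + 1) scale and the deposited intervals of HFOB and Control did not overlap. By this rule 1 row was higher in HFOB, which is 0.00774% of the rows compared, and 23 were lower, which is 0.178%. A milder threshold of 1.5-fold without regard to the intervals was passed by 39 rows that were higher (0.302%) and by 194 that were lower (1.5%). With HFOB scaled to the Control sum these became 63 higher and 144 lower, so the excess of lower rows stayed but shrank. The intervals set how small a difference could be called. Their median half-width was 67.1% of the value in Control and 66.5% in HFOB for rows of 1 to 5 FPKM, and a row with intervals of this width separates at a ratio of 5.08. For rows of 20 to 100 FPKM it was 37.6% and 37.3%, which gives a ratio of 2.21. Single rows had wider or narrower intervals and separated at other ratios.

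**Figure D1:**
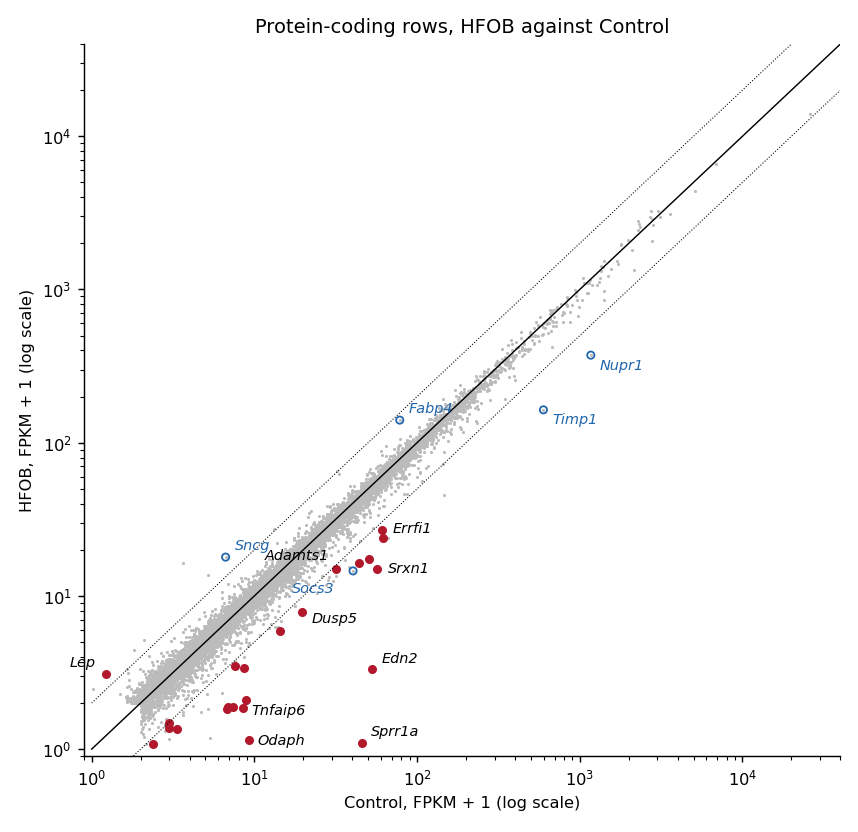
FPKM + 1 in Control (x axis) against HFOB (y axis) for 12921 protein-coding rows, both axes on a log scale. Red points are the called rows named in the text, blue circles are rows named without a call, the solid line marks equal levels and the dotted lines mark a 2-fold difference. The called rows lie below the diagonal except Lep, at 0.223 FPKM on chow and 2.1 in HFOB.

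The lowest values relative to Control belonged to genes known from epithelial surfaces, from blood vessels and from ovulation. Sprr1a, a small proline-rich protein of cornified epithelium that also appears after injury, lies at chr3:92483954-92485881. It stood at 44.8 FPKM on chow (deposited interval 18 to 71.5), 0.664 in the HFLN group (0 to 1.42) and 0.0977 in HFOB (0 to 0.304). The log2 ratio of HFOB to Control was -5.38, and the lower bound in Control was 59.4 times the upper bound in HFOB. Edn2 at chr4:120161206-120167360 encodes endothelin-2, a peptide that contracts smooth muscle and is made by granulosa cells at ovulation. Its level was 52.1 FPKM on chow (23.3 to 80.9), 3.27 in the HFLN group (0.893 to 5.64) and 2.34 in HFOB (0.549 to 4.13), a log2 ratio of -3.99. Both diet groups thus sat far below Control for Sprr1a and Edn2, and their own intervals overlapped. In bulk tissue, fewer cells of a type and less RNA per cell cannot be told apart.

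Odaph, a secreted phosphoprotein known from tooth enamel, stood at 8.24 FPKM on chow (2.24 to 14.2) and 0.146 in HFOB (0 to 0.412), with a log2 ratio of -3.01. Tnfaip6, which cross-links hyaluronan in the matrix of the expanding cumulus, stood at 7.47 FPKM (2.57 to 12.4) and 0.848 (0.140 to 1.56), a log2 ratio of -2.20. In HFLN these genes stood at 0.240 and 1.10 FPKM. Adamts1, the protease that cleaves versican in the ovulating follicle, was nearer the thresholds. Its level was 31.0 FPKM on chow (20.6 to 41.3), 19.2 in the HFLN group (12.5 to 25.8) and 13.9 in HFOB (8.97 to 18.9), a log2 ratio of -1.10. The HFLN interval of Adamts1 overlapped those of both other groups.

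The rest of the ovulatory list did not follow these 3 genes as a block. Of 23 members compared, 15 were lower in HFOB and 8 higher, with a median log2 ratio of -0.24 beside -0.01 for all rows. At least 1.5-fold lower were 7, beside 1.5% of all rows, and 0 were 1.5-fold higher. The 3 called were Edn2, Tnfaip6 and Adamts1. Without those 3, the median was -0.18. The EGF-like ligand Areg, which relays the hormone surge, stood at 1.42 FPKM on chow and 0.581 in HFOB, while its relative Ereg stood at 2.98 and 3.05. The prostaglandin synthase Ptgs2 was below 1 FPKM in both groups, at 0.779 and 0.266, as was the hyaluronan synthase Has2. Versican itself (Vcan) differed little, at 36.3 and 34.9 FPKM. The progesterone receptor Pgr stood at 2.25 and 1.75 FPKM, and Cebpb, a factor needed for ovulation, at 186 (42.8 to 329) and 122 (55.9 to 187). Star, which brings cholesterol into mitochondria, was higher, at 147 FPKM on chow, 230 in HFLN and 169 in HFOB.

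Other called genes that were lower in HFOB are known from nerve and endocrine cells or from signalling. Wnt7b, a Wnt ligand, stood at 7.84 FPKM on chow (3.49 to 12.2) and 1.10 in HFOB (0.170 to 2.04), with a log2 ratio of -2.07. The other 10 Wnt-list members compared lay between 1.5-fold lower and 1.5-fold higher, among them Wnt4 at 56.7 and 60.0 FPKM. Rem2, a small GTPase that restrains calcium channels, had a log2 ratio of -1.87 (5.85 and 0.873 FPKM). Brinp2, a protein of nerve cells, had a log2 ratio of -1.36 (7.65 and 2.38 FPKM). Rnf152, a ubiquitin ligase of the lysosome, had a log2 ratio of -1.14, from 6.64 FPKM on chow to 2.46 in HFOB, with HFLN in between at 4.37. The remaining 4 called genes were expressed at low levels even in Control. Ptprn, a protein of secretory granules, stood at 2.34 and 0.348 FPKM, and the kinase Prkg2 at 2.00 and 0.376. The semaphorin Sema4f stood at 1.39 and 0.0779 FPKM, where the gap between the intervals was 0.00199 FPKM. The histone gene H3c13 stood at 1.99 and 0.475 FPKM, and reads of near-identical histone copies make its value uncertain.

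**Figure D2:**
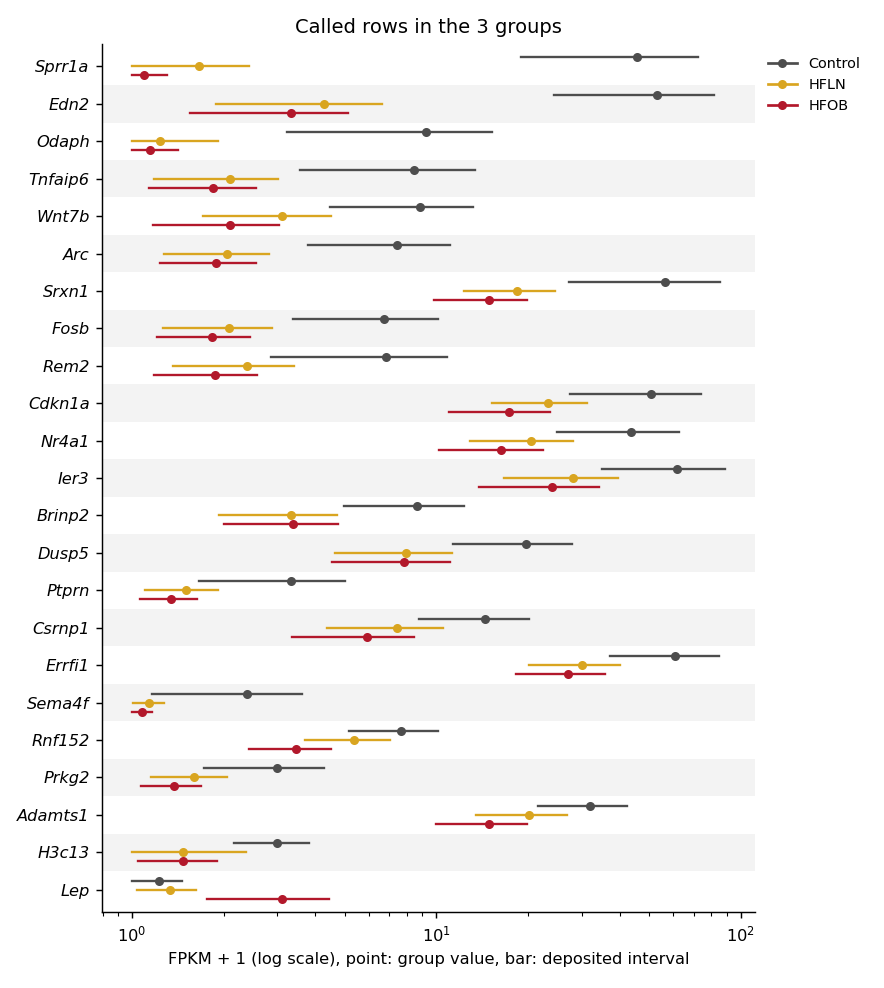
FPKM + 1 on a log scale for 22 called rows lower in HFOB and for Lep, with the group value as a point and the deposited interval as a bar, in Control (grey), HFLN (yellow) and HFOB (red). HFLN lies below Control in the rows that are lower. For Brinp2 and H3c13 it is also slightly below HFOB. For the other lower rows it lies between Control and HFOB, among them Rnf152 (4.37 FPKM) and Adamts1 (19.2 FPKM). For Lep HFLN lies with Control.

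The HFLN value was below Control for 23 of the 23 called genes that were lower in HFOB. It was at least 2-fold lower on the log2(FPKM + 1) scale for 19 of them and had an interval apart from that of Control for 10. HFLN and HFOB are compared with the same Control animals, so their differences from Control are not independent. Set directly against each other, HFLN and HFOB had overlapping intervals for each of the 23 genes. Over all 12921 rows compared, their intervals were apart in only 3, so this overlap does not set the 23 genes apart. HFLN was the higher of the 2 diet groups for 21 of the 23. Over all 12921 rows, HFLN was above HFOB for 6867 and below Control for 6428, and its interval was apart from that of Control for 11. The 23 genes were chosen by their Control and HFOB values, and that choice itself favours an HFLN value between them. The summed FPKM of the 23 genes was 498 in Control, 169 in HFLN and 135 in HFOB. The 24 called rows, Lep included, had a median gene span of 11.7 kb against 24.6 kb over all rows compared, with single spans from 0.502 to 111 kb.

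The promoters of the genes lowest in HFOB are shown to let their shared letters be seen. A RefSeq promoter window around the start on GRCm38.p6 was found for 18 of the 23 lower genes. The AP-1 site, to which Fos and Jun proteins bind, was searched as TGANTCA on both strands. It was found in 5 of these 18 genes (27.8%), compared with 6.23% of the 9956 compared genes that have a window and 8.97% of all 27025 genes in the promoter table. Here and below a gene counts once if the window of any of its annotated starts has a match. Genes with several starts thus have more chances to match. These are the bases around the matches, 5′ to 3′ on the strand of the gene, with AP-1 matches in capitals and, for Sprr1a, also the TATA box (TATAAA).
Sprr1a, chr3:92485911-92486041, minus strand: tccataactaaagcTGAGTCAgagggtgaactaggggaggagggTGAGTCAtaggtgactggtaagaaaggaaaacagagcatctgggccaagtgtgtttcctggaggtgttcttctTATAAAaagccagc
Srxn1, chr2:152105404-152105494, plus strand: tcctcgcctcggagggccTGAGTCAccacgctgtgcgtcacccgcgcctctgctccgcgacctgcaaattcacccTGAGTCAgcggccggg
Odaph, chr5:91987373-91987433, plus strand: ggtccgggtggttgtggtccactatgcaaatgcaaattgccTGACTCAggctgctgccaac
Tnfaip6, chr2:52037933-52037993, plus strand: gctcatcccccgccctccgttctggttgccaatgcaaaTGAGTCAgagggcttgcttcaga
Csrnp1, chr9:119983024-119983138, minus strand: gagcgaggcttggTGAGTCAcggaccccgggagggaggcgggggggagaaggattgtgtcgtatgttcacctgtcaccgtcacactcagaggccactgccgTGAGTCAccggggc
Sprr1a, Srxn1 and Csrnp1 carry a pair of matches each, at -146 and -116, at -102 and -45, and at -102 and -14 from the start. The distal match of Sprr1a overlaps a match to the antioxidant response element (TGACNNNGC) on the other strand. Csrnp1 has several annotated starts and the window is that of a single start. A match is a description of the letters and not evidence that a factor binds there. The window of Edn2 held none of the 11 motifs searched, which says only that these letters are absent from it.

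Immediate-early genes had the lowest median of the 40 lists described. Of 31 members compared, 29 were lower in HFOB and 2 higher, 18 were at least 1.5-fold lower and none was 1.5-fold higher, and 5 were called. The median log2 ratio was -0.62 beside -0.01 for all rows, and -0.51 without the called members. With HFOB scaled to the Control sum, 27 of 31 were lower, the median was -0.57, and the calls of Ier3 and Csrnp1 were lost. Both calls stayed with HFOB scaled to a median log2 ratio of 0. In HFLN, 30 of the 31 were below Control, with a median of -0.75.

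Among the AP-1 subunits, Fosb was called, at 5.75 FPKM on chow (2.38 to 9.12), 1.08 in the HFLN group (0.268 to 1.89) and 0.826 in HFOB (0.209 to 1.44), a log2 ratio of -1.89. Junb stood at 82.5 FPKM on chow (45.9 to 119), 34.0 in HFLN and 45.0 in HFOB (28.5 to 61.5), with a log2 ratio of -0.86. Jun stood at 112, 62.3 and 67.2 FPKM in the same order. The classical member Fos was modestly lower, at 14.6 FPKM on chow and 9.38 in HFOB, a log2 ratio of -0.59. Fosl2 differed in neither direction by much, at 65.3 and 67.7 FPKM, and Jund stood at 98.8 and 89.4. The partners of the AP-1 dimer thus differed from Control to unequal degrees, with Fosb far below the rest.

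Among nuclear receptors and zinc-finger factors, Nr4a1, an orphan receptor induced by luteinizing hormone, was called. It stood at 42.8 FPKM on chow (24 to 61.5), 19.5 in the HFLN group (11.9 to 27.0) and 15.3 in HFOB (9.23 to 21.5), a log2 ratio of -1.42. Its relatives were expressed at low levels, with Nr4a2 at 3.50 and 2.66 FPKM and Nr4a3 at 1.34 and 0.471. Egr1, a sensor of ERK activity, stood at 52.5 FPKM (33.5 to 71.5) and 38.9 (25.9 to 51.9), a log2 ratio of -0.42. The Krüppel-like factors lay closer to Control, from Klf6 with a log2 ratio of -0.31 to Klf2 with -0.07.

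Among the remaining members, Arc, known from active synapses, stood at 6.43 FPKM on chow (2.78 to 10.1) and 0.894 in HFOB (0.234 to 1.55), a log2 ratio of -1.97. Ier3, which modulates ERK signalling and cell survival, stood at 60.9 FPKM (33.9 to 88.0) and 23.0 (12.8 to 33.2), and its bounds were 0.690 FPKM apart. Csrnp1, a nuclear protein, stood at 13.4 FPKM (7.74 to 19.1) and 4.91 (2.35 to 7.47). These are the other called members. Several more had lower values of similar size with overlapping intervals: the antiproliferative gene Btg2 (log2 ratio -1.16), the stress factor Atf3 (-1.10), Maff (-0.99) and Zfp36, which speeds the decay of cytokine messenger RNA (-0.96). Myc stood at 104 and 85.6 FPKM, and the serum response factor Srf at 22.1 and 20.7. The matrix gene Ccn2 was slightly higher, at 97.0 and 103 FPKM, while its relative Ccn1 was lower, at 37.4 and 21.8.

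In the promoters of 23 immediate-early genes with a window, the core TGACG of the cAMP response element was found in 69.6%, against 34.1% of the compared genes. The site of the EGR factors (GCGGGGGCG) was found in 30.4%, against 6.37%. The AP-1 site was found in 1 of the 23 genes (4.35%), so it was not a shared letter string of this list.

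Inhibitors that act back on the ERK cascade were lower too. Of 16 members, 15 were lower in HFOB, 3 were at least 1.5-fold lower and 2 were called, with a median log2 ratio of -0.27. Scaling to the Control sum left 13 of 16 lower and neither of the 2 called. Both stayed called with HFOB scaled to a median log2 ratio of 0. Dusp5, a phosphatase that removes ERK activity in the nucleus, stood at 18.7 FPKM on chow (10.3 to 27.0), 6.95 in the HFLN group (3.66 to 10.2) and 6.8 in HFOB (3.54 to 10.1), a log2 ratio of -1.33. Errfi1, which binds and inhibits the EGF receptor, stood at 59.9 FPKM (36.1 to 83.8), 29.2 (19.1 to 39.2) and 26.0 (17.2 to 34.8), a log2 ratio of -1.17. For both genes HFLN and HFOB had nearly equal values. Dusp4 stood at 4.82 and 2.09 FPKM, and Dusp6, the cytoplasmic ERK phosphatase, at 16.1 and 10.9. Sprouty and Spred proteins differed less, from Spry4 with a log2 ratio of -0.27 to Spry1 with -0.05.

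Stretches from the windows of the called pair are shown, with matches to CArG boxes, the full cAMP response element and the TATA box in capitals.
Dusp5, chr19:53529035-53529095, plus strand: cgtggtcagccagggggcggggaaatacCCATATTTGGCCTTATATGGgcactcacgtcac
Errfi1, chr4:150854990-150855060, plus strand: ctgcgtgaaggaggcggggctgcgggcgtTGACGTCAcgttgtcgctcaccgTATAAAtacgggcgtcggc
In Dusp5 the capitals are a pair of adjoining CArG boxes, the element bound by serum response factor. The Dusp5 stretch also holds the core TGACG on the other strand, at -55 from the start, left in lower case. In Errfi1 the capitals are a full cAMP response element (TGACGTCA) and a TATA box. The full cAMP response element was in 3 of 14 genes of this list with a window (21.4%) and in 3.55% of the compared genes. A CArG box was in 1.57% of the compared genes.

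Suppressors of cytokine signalling also stood below Control. Socs3, induced by leptin and interleukin-6 through STAT3, stood at 39.4 FPKM on chow (20.8 to 58.0), 31.4 in the HFLN group (6.74 to 56.1) and 13.6 in HFOB (6.04 to 21.1). Socs1 stood at 37.2 FPKM (15.6 to 58.8), 23.9 (7.48 to 40.2) and 14.4 (3.33 to 25.5). The log2 ratios of HFOB to Control were -1.47 and -1.31, but the intervals overlapped in both cases and neither gene was called. Of 11 members of the list, 9 were lower in HFOB and 5 were at least 1.5-fold lower, with a median of -0.44. In HFLN 9 of the 11 were lower, with a median of -0.34. A further row of Socs3 stood at 12.4, 18.1 and 5.31 FPKM. Cish, a target of STAT5, had a log2 ratio of -0.63, while Bcl3 stood at 19.8 and 11.3 FPKM and Stat3 itself at 41.6 and 31.6. The receptor chains differed little, with Il6ra at 2.1 and 2.43 FPKM and Il6st at 33.1 and 31.1. The ligand Il6 was scarce, at 1.11 and 0.192 FPKM, with the lower bounds at 0.

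Among genes of growth arrest and antioxidant defence, the large differences were limited to a few members. Cdkn1a, an inhibitor of the cell cycle and a target of p53, stood at 49.9 FPKM on chow (26.6 to 73.2), 22.3 in the HFLN group (14.3 to 30.3) and 16.3 in HFOB (10.0 to 22.6), a log2 ratio of -1.56. The stress genes Gadd45a, Gadd45b and Gadd45g had log2 ratios of -0.72, -0.79 and -0.99. Other p53 targets lay near Control, among them Mdm2 at 20.9 and 19.8 FPKM, Ccng1 at 18.7 and 19.6 and Bax at 140 and 130. Of 18 members of this list, 11 were lower and 7 higher, with a median of -0.10.

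Srxn1, which repairs over-oxidized peroxiredoxins, was the called member of the antioxidant list, at 55.4 FPKM on chow (26.4 to 84.5), 17.4 in the HFLN group (11.3 to 23.6) and 13.9 in HFOB (8.85 to 18.9), a log2 ratio of -1.92. Hmox1, which degrades haem, stood at 86.1 FPKM (46.7 to 126) and 45.3 (29.7 to 60.9), a log2 ratio of -0.91. The other targets of the factor NRF2 on this list lay less than 1.5-fold from Control. Nqo1 stood at 4.11 and 4.10 FPKM, Gclm at 19.6 and 17.7 and Txnrd1 at 48.3 and 40.5. The ferritin gene Ftl1 stood at 2778.5 FPKM (0 to 5582) and 2056 (926 to 3186), a log2 ratio of -0.43. Of 19 members 15 were lower, with a median of -0.08 that became 0.01 with HFOB scaled to the Control sum. Catalase (Cat) and superoxide dismutase (Sod1) were level, at 61.7 and 62.3 FPKM and at 728 and 763.

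**Figure D3:**
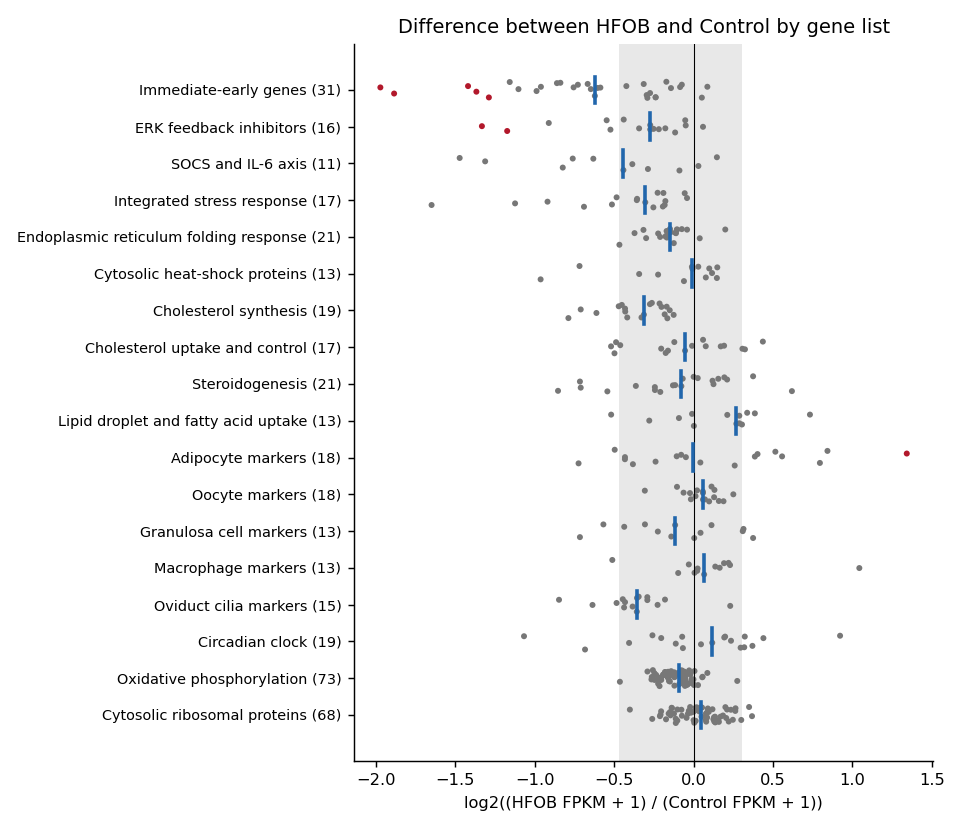
Log2 ratio of HFOB to Control on the x axis for the members of 18 gene lists, 1 point per gene, with the number compared in brackets. Blue bars are list medians, red points are called genes, and the grey band holds the middle 95% of all protein-coding rows (-0.47 to 0.30). Immediate-early genes have the lowest median (-0.62), and oxidative phosphorylation and ribosomal protein genes cluster near 0.

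Genes of the integrated stress response, which follows phosphorylation of the initiation factor eIF2 and runs through Atf4, were lower as a list. All 17 members compared were below Control in HFOB, 15 of 17 after scaling to the Control sum, with 4 at least 1.5-fold lower, none called and a median log2 ratio of -0.30. Nupr1, a small stress-induced chromatin protein, carried the widest difference, at 1168 FPKM on chow (265 to 2070), 346 in the HFLN group (213 to 480) and 371 in HFOB (248 to 495), a log2 ratio of -1.65. Its Control interval was wide and overlapped the HFOB interval. Ddit3, which promotes cell death under stress, stood at 106 FPKM (18.5 to 193) and 55.5 (19.6 to 91.5). Atf4 stood at 236 and 165 FPKM, and the glutathione-degrading enzyme Chac1 at 2.64 and 0.668. Amino acid genes downstream of Atf4 differed less, with Asns at 17 and 11.9 FPKM, Psat1 at 15.7 and 13.6 and Slc3a2 at 168 and 131.

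Chaperones of the endoplasmic reticulum showed smaller differences in the same direction. Of 21 members, 19 were lower in HFOB, none by 1.5-fold, with a median of -0.15. With HFOB scaled to the Control sum, 17 were lower and the median was -0.06. A list of 7 reference genes lay about as low, with all 7 lower and a median of -0.16, or -0.07 after that scaling. The chaperone list as a whole was therefore not lower than these reference genes. Hspa5, the main chaperone of this compartment, stood at 564 FPKM on chow (257 to 871), 526 in HFLN and 458 in HFOB (228 to 688). Herpud1, which serves degradation of misfolded proteins, had the lowest log2 ratio of the list, -0.47, at 82.8 and 59.6 FPKM. The sensors Atf6, Ern1 and Eif2ak3 had log2 ratios of -0.12, -0.11 and -0.10, and their target factor Xbp1 stood at 114 and 106 FPKM. In HFLN the list median was -0.01, with 11 of 21 lower.

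Many promoters of this list carry an element bound by Atf6, and a pair is shown to let it be seen. The ER stress response element was found in 8 of 18 genes with a window (44.4%) and in 0.181% of the compared genes. It stands in capitals, on opposite strands.
Creld2, chr15:88819496-88819556, plus strand: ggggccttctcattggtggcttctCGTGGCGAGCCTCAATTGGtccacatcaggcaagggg
Pdia6, chr12:17266469-17266529, plus strand: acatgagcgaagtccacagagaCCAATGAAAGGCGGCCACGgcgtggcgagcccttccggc
Creld2 stood at 97.4 FPKM on chow (64.3 to 131) and 83.3 in HFOB (54.3 to 112). Pdia6, a disulfide isomerase, stood at 266 FPKM (136 to 396) and 245 (137 to 353). The intervals overlapped for both.

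Cytosolic heat-shock genes lay on both sides of Control. Of 13 members, 7 were lower and 6 higher, with a median of -0.01 that became 0.09 with HFOB scaled to the Control sum. The inducible genes Hspa1a and Hspa1b were the lowest, at 25.1 and 12.4 FPKM (log2 ratio -0.96) and at 39.3 and 23.5 FPKM (-0.72), and as near-identical copies they may share reads. Their constitutive relative Hspa8 stood at 270 and 300 FPKM.

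Genes of cholesterol synthesis stood below Control at each step compared. All 19 enzymes were below Control in HFOB, also after scaling to the Control sum, with a median log2 ratio of -0.31 beside -0.01 for all rows. No enzyme was called, 3 were at least 1.5-fold lower, and the intervals of the groups overlapped for each of the 19. Of 20 enzymes listed, the remaining member shares a merged row with another gene and was not compared. That row had a log2 ratio of 0.01. In HFLN 14 of the 19 were below Control, with a median of -0.16.

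In the mevalonate part of the pathway, Hmgcs1 stood at 103 FPKM on chow (62.6 to 143), 103 in HFLN and 75.9 in HFOB (48.8 to 103). Its log2 ratio was -0.43, that of the decarboxylase Mvd -0.47 and that of the isomerase Idi1 -0.15. In the sterol part, Sqle, which oxidizes squalene, stood at 36.4 and 26.4 FPKM, and the cyclase Lss at 13.3 and 9.69. Cyp51, the demethylase of lanosterol, had a log2 ratio of -0.61, at 35.9 FPKM (23.9 to 47.9) and 23.1 (15.3 to 30.9). Hsd17b7, a sterol reductase that also makes oestradiol in the corpus luteum, stood at 104 FPKM on chow (56.1 to 152), 105 in HFLN and 63.1 in HFOB (37.4 to 88.8). Dhcr7, which makes cholesterol from its direct precursor, was closer to Control, with a log2 ratio of -0.27.

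**Figure D4:**
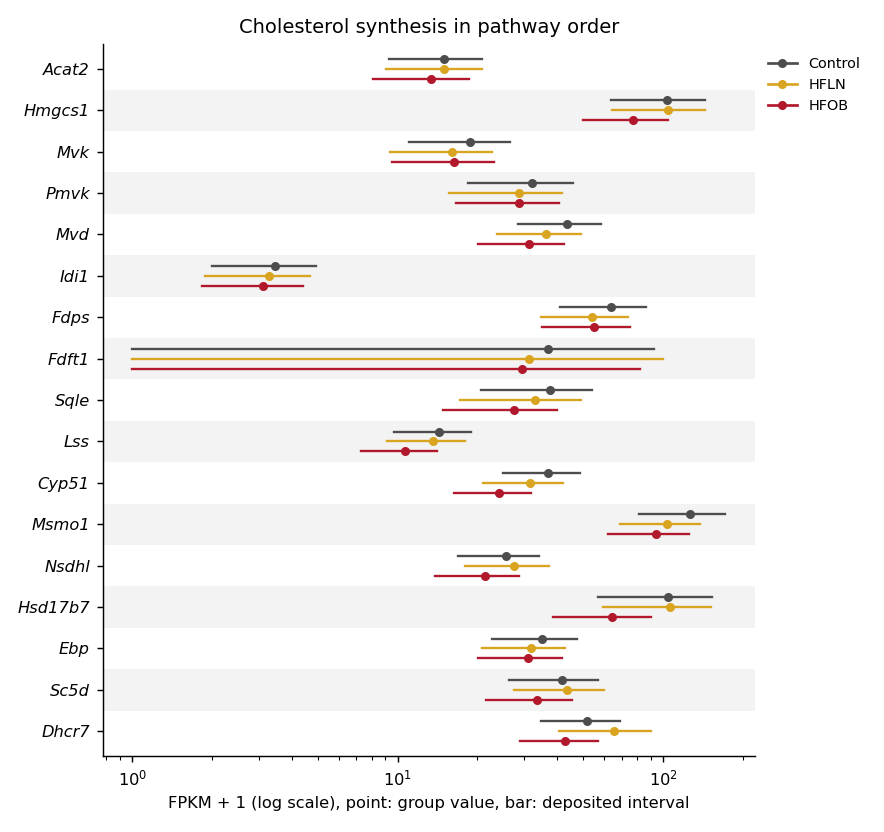
FPKM + 1 on a log scale for 17 of the 19 enzymes of cholesterol synthesis in pathway order from top to bottom, with group values as points and deposited intervals as bars in Control (grey), HFLN (yellow) and HFOB (red). HFOB is the lower of HFOB and Control for each enzyme drawn, with log2 ratios between -0.71 and -0.15, and the intervals overlap throughout.

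The sterol regulatory element, searched as TCACNCCAC on both strands, was found in the window of 1 of 14 genes of this list, Hmgcs1, and in 1.51% of the compared genes. It is given in capitals.
Hmgcs1, chr13:119690191-119690251, plus strand: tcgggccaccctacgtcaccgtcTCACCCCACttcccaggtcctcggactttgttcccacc

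Genes that take up, sense or export cholesterol lay on both sides of Control. Lrp8, a receptor for apolipoprotein E, Stard4, a carrier of cholesterol, and Insig1, which retains SREBP in the endoplasmic reticulum, had log2 ratios of -0.52, -0.49 and -0.46. The HDL receptor Scarb1 stood at 555 and 496 FPKM. The factor Srebf2, which drives this pathway, stood at 50.4 and 43.6 FPKM. The highest members, none of them called, include genes linked to the liver X receptor, which responds to sterol excess. Its gene Nr1h3 had a log2 ratio of 0.44, its target Mylip, a ubiquitin ligase for lipoprotein receptors, 0.32, and the exporters Abcg1 and Abca1 0.19 and 0.17. The other receptor gene, Nr1h2, shares a merged row with Pold1, at a log2 ratio of -0.04. Apoe, a carrier of lipids and a target of the same receptor, stood at 2264 FPKM on chow (977 to 3552), 1998 in HFLN and 2803 in HFOB (992 to 4613). It was the protein-coding row with the largest gain in FPKM. Over the 17 members, 10 were lower and 7 higher, with a median of -0.05 that became 0.04 with HFOB scaled to the Control sum.

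Genes of steroid synthesis differed in both directions. Cyp17a1, which makes androgens in theca cells, stood at 346 FPKM on chow (154 to 539), 183 in HFLN and 191 in HFOB (103 to 280), a log2 ratio of -0.85. Cyp19a1, the aromatase of granulosa cells, stood at 20.7 FPKM (13.3 to 28.0), 14.5 and 12.2 (7.36 to 17), a log2 ratio of -0.72. The electron carrier Fdx1 stood at 974 and 668 FPKM. The abundant enzymes of progesterone synthesis were closer to Control, with Cyp11a1 at 3608 and 3120 FPKM and Hsd3b1 at 3111 and 2949, and their deposited intervals reached 0. Nr0b1, a repressor of steroidogenic genes, was higher, at 6.50 FPKM on chow (2.65 to 10.3), 6.87 in HFLN and 10.5 in HFOB (4.97 to 16.1). Of 21 members, 12 were lower and 9 higher, with a median of -0.08 that became 0.02 with HFOB scaled to the Control sum. Akr1c18, the luteal enzyme that inactivates progesterone, was merged with Akr1c12 in 1 row. That row stood at 2672 FPKM on chow (0 to 7173), 1084 in HFLN and 1496 in HFOB (0 to 3029), with overlapping intervals.

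Leptin was the single gene called higher. Lep, at chr6:29060221-29073876, encodes the hormone by which fat cells report their stores. It stood at 0.223 FPKM on chow (0 to 0.455), 0.332 in the HFLN group (0.0392 to 0.625) and 2.1 in HFOB (0.759 to 3.44), a log2 ratio of 1.34 and a plain ratio of 9.42. Its HFOB interval was apart from those of both other groups. The receptor Lepr was level, at 3.31 FPKM on chow and 3.40 in HFOB, and so were the adiponectin receptors Adipor1, at 53.7 and 53.5, and Adipor2, at 44.7 and 40.9.

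Other genes of fat cells differed in both directions. Fabp4, a fatty acid carrier of adipocytes and capillaries, stood at 77.2 FPKM on chow (43.9 to 111), 87.2 in HFLN and 139 in HFOB (84.3 to 194), a log2 ratio of 0.84. The droplet protein Cidec stood at 5.90, 5.75 and 11 FPKM, and Car3, a carbonic anhydrase of fat and muscle, at 63.4, 52.8 and 93.8. The hormone Adipoq stood at 14.7, 11.9 and 21.5 FPKM. In these 4 genes HFOB was the highest group and HFLN lay near Control. By contrast, Cfd, the secreted protease adipsin, had the lowest log2 ratio of the list, -0.72, at 103, 86.4 and 62.2 FPKM with lower bounds of 0. Plin1, the coat of the adipocyte droplet, stood at 13.0 and 12.3 FPKM on chow and HFOB, Lipe at 27.4 and 28.3, Pparg at 33.6 and 24.6 and Retn at 19.5 and 16.4. Over the list, 9 of 18 members were higher and 9 lower, with a median of -0.00 that became 0.08 with HFOB scaled to the Control sum. The summed level of these 18 was 617 FPKM on chow, 539 in HFLN and 636 in HFOB, and Ucp1 and Aqp7 were below 1 FPKM. The part of attached fat in the value of Lep was not tested.

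Lipid droplet and fatty acid uptake genes that are not specific to fat cells were mostly higher. Of 13 members, 9 were higher and 4 lower, with a median of 0.27 beside -0.01 for all rows, and 10 of 13 were higher after scaling to the Control sum. Plin5, which ties droplets to mitochondria, stood at 5.34 FPKM on chow (2.29 to 8.4), 11.8 in HFLN and 9.54 in HFOB (4.78 to 14.3), a log2 ratio of 0.73. Plin2, the general droplet coat, stood at 77.5 (51.3 to 104) and 95.9 (63.3 to 129). The fatty acid transporter Cd36 and the lipase Lpl had log2 ratios of 0.34 and 0.39. Synthesis and oxidation of fatty acids lay near Control, with medians of -0.08 and -0.03 that became 0.01 and 0.05 with HFOB scaled to the Control sum.

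**Figure D5:**
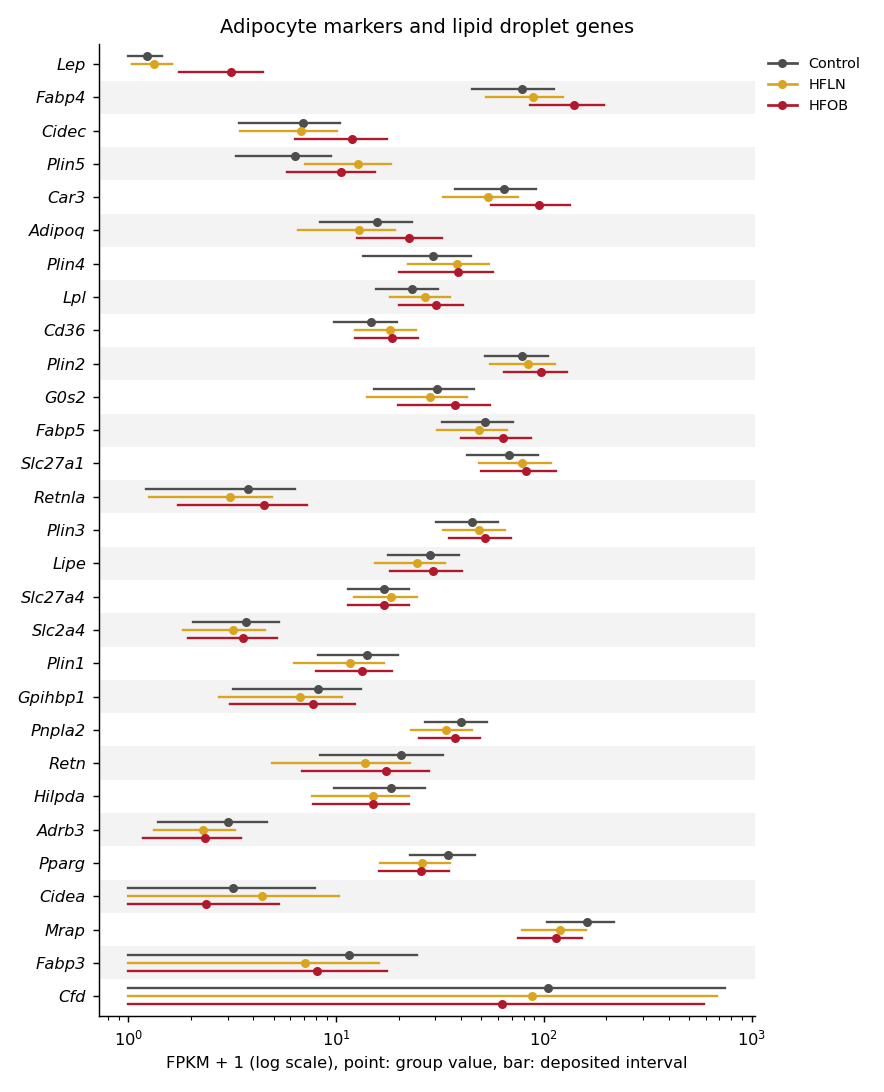
FPKM + 1 on a log scale for adipocyte markers and lipid droplet genes, ordered by the log2 ratio of HFOB to Control, with group values as points and deposited intervals as bars in Control (grey), HFLN (yellow) and HFOB (red). Lep stands apart from the other genes, since its HFOB interval (0.759 to 3.44 FPKM) lies above those of both other groups.

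Several abundant genes were more than 2-fold lower without a call, with overlapping intervals. Timp1, which blocks metalloproteinases of the matrix, stood at 597 FPKM on chow (57.7 to 1135), 192 in HFLN and 163 in HFOB (63.4 to 262). Tnfrsf12a, the receptor of the cytokine TWEAK, stood at 146 FPKM (26.7 to 266), 53.2 and 44.7 (12.2 to 77.2). Ramp1, a partner of the receptors for calcitonin gene-related peptide, stood at 64.8 FPKM (23.1 to 107), 29.8 and 22.8 (10.1 to 35.5). What set the width of these Control intervals was not tested. In the list of matrix proteases and inhibitors, 12 of 17 members were lower and 2 were called, Adamts1 among them, with a median of -0.19. At least 1.5-fold lower were 5, and 0 were 1.5-fold higher. Over all rows compared, 53.6% were lower, 1.5% were 1.5-fold lower and 0.178% were called lower. Timp2 and Mmp2 were near Control, at 95.2 and 99.4 FPKM and at 64.4 and 69.2. Plaur, the receptor of urokinase, had a log2 ratio of -0.97, at 9.82 and 4.53 FPKM.

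Among rows higher in HFOB without a call, Sncg, a synuclein also expressed in fat, stood at 5.65 FPKM on chow (1.53 to 9.78), 7.28 in HFLN and 16.9 in HFOB (7.19 to 26.6), a log2 ratio of 1.43. Pcp4, a calmodulin-binding peptide, stood at 4.19 and 12.7 FPKM with intervals of 0 to 8.65 and 2.74 to 22.6. Gpnmb, a membrane glycoprotein of lipid-laden macrophages, stood at 12.3 FPKM (6.61 to 17.9), 17 in HFLN and 26.4 in HFOB (14.2 to 38.5). Wfdc2, a secreted product of reproductive tract epithelium, stood at 31.3, 70.0 and 64.2 FPKM, so both diet groups were above Control. Mmp12, an elastase of macrophages, and Stc1, a secreted glycoprotein, had log2 ratios of 0.70 and 0.69.

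Clock genes differed in both directions. Dbp, an output factor, stood at 32.1 FPKM on chow (3.37 to 60.8), 53.2 in HFLN and 61.7 in HFOB (20.2 to 103), and its relatives Tef and Hlf had log2 ratios of 0.32 and 0.44. Nfil3, which competes with them for the same sites, stood at 35.0 (21.1 to 48.9), 16.8 and 16.2 (9.48 to 22.9), a log2 ratio of -1.07. Bhlhe40, a repressor of the clock, had a log2 ratio of -0.68 and the activator Arntl -0.26. No source used here gives the time of day at which ovaries were taken. Of 19 members, 11 were higher and 8 lower, with a median of 0.12.

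Markers of the ovarian cell types were mostly close in both groups. Of 18 oocyte genes, 13 were higher and 5 lower, with a median of 0.06, from Kit with a log2 ratio of -0.31 to Mos with 0.25. Granulosa markers had a median of -0.12 over 13 genes, and the lowest were Cyp19a1 and the inhibin subunits Inhba (-0.57) and Inhbb (-0.44), while Amh and Kitl were level. Theca markers had a median of 0.04 over 7 genes, with Cyp17a1 and Fdx1 the lowest. Luteal markers were lower for 6 of 7 genes, with a median of -0.25. Macrophage markers were higher for 10 of 13 genes, with a median of 0.07. The complement genes C1qa, C1qb and C1qc stood at 117, 132 and 120 FPKM on chow and at 123, 145 and 120 in HFOB. Cd3e, part of the T cell receptor complex, was below 1 FPKM in both groups.

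Markers of ciliated cells, which line the adjoining oviduct, stood on opposite sides of Control in the diet groups. Of 15 cilia markers, 14 were lower in HFOB than in Control, with a median of -0.36, whereas all 15 were higher in HFLN, with a median of 0.59. Their summed level was 310 FPKM on chow, 465 in HFLN and 241 in HFOB. Foxj1, the master factor of motile cilia, stood at 19.4 FPKM (10.6 to 28.1), 33.5 and 15.6 (6.78 to 24.5). No cilia marker was called, and the part of attached oviduct in any gene was not tested.

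Interferon-stimulated genes had a median of -0.07 over 15 genes that became 0.00 with HFOB scaled to the Control sum, although all 15 were higher in HFLN, with a median of 0.44. Isg15 stood at 17.3 FPKM on chow, 31.0 in HFLN and 16.1 in HFOB. Among vessel-acting genes other than Edn2, Vegfa stood at 84.4 FPKM (52.7 to 116) and 57.5 (38.2 to 76.9), and adrenomedullin (Adm) at 19.4 and 11.6. The endothelin relatives Edn1 and Edn3 and the receptors Ednra and Ednrb lay near Control, with log2 ratios of 0.19, 0.27, -0.01 and 0.15. In the insulin and IGF list, the glucose transporter Slc2a1 stood at 31.8 and 18.7 FPKM, while Insr stood at 12.3 and 11.7 and Igf1 at 9.10 and 9.32.

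In large gene families, small medians changed with the scale. Oxidative phosphorylation genes were lower for 66 of 73, with a median of -0.09, but 36 of 73 were lower after scaling to the Control sum, when the median was 0.00. Ribosomal protein genes were higher for 44 of 68, with a median of 0.05, and for 52 of 68 after that scaling. Cell cycle genes had a median of -0.04, or 0.05 after scaling. The immediate-early, SOCS, integrated stress response, cholesterol synthesis and cilia lists had medians of -0.22 or lower also after that scaling. With HFOB scaled instead to a median log2 ratio of 0, 61 of 73 oxidative phosphorylation genes were lower, with a median of -0.07.

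At the thresholds, H3c13 and Adamts1 were the called rows just inside the 2-fold line, with log2 ratios of -1.02 and -1.10. No row had intervals apart and less than a 2-fold difference, so in this comparison the intervals alone decided the calls. At the line of 1 FPKM, Fmn2 at 1.0001 FPKM in HFOB and Pcdh9 at 1.0028 in Control were just inside, and Cib3 at 0.99988 and St8sia4 at 0.99967 FPKM on chow were just outside.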

How the data were processed

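Ovarian messenger RNA libraries, made with a strand-specific kit per the labels' protocols, were processed by the authors. Tools listed, per the submitters' processing notes, were Cuffdiff 2.2.1.3, Cufflinks 2.2.1.0, TopHat2 2.1.0 and Trimmomatic 0.32.3, with the build mm10. Per the file headers, the deposited values are FPKM per group with a lower and an upper bound and a status. Read totals were not given in the sources used here, and the depth of a sample is unknown. Precision is taken from the bounds.

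RefSeq identifiers were matched to symbols and coordinates of GRCm38.p6, the assembly behind mm10 (99.2% of 36886). Rows with 1 protein-coding symbol, a status of OK in both groups and at least 1 FPKM in either were kept, and a pseudocount of 1 FPKM was added before taking log2. This scale understates differences of low genes. Lists use the row with the highest mean for each gene. The annotation, scaling between libraries and strand setting were not given either, and a gene may hold reads of an overlapping antisense partner. The rule was run on simulated group values without noise, a check of the calculation that says nothing about how often calls are false. Scripts used Python 3.11.15, numpy 2.4.6, pandas 2.3.3 and matplotlib 3.10.9.

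The genes named are the called rows, in each list the 2 highest and 2 lowest members of at least 5 FPKM, members of a role described step by step, the 12 highest and 12 lowest uncalled genes, the 6 largest differences in FPKM in each direction, and rows next to a threshold. The text draws from these, and other members, named to show values near Control, were chosen after their values were seen. Members and lists were chosen with earlier results of these data known. Among them, 1 called gene that was lower in HFOB and some list members are not reported here by name, though the counts and medians include them.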

Additional observations from a re-analysis of the deposited data

How the results depend on the processing

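No paired analysis was possible because the table holds 1 value per group and none per animal, and leaving out an animal was not possible for the same reason. The 23 lower calls became 14 with HFOB scaled to the Control sum of protein-coding rows (Ier3, Brinp2, Dusp5, Ptprn, Csrnp1, Errfi1, Sema4f, Prkg2 and H3c13 dropped out) and 54 by a 2-fold difference alone. They were 22 with HFOB scaled to a median log2 ratio of 0, where Sema4f dropped out. The single higher call, Lep, became 0 with at least 5 FPKM required, which removes Lep by its level, and 10 by a 2-fold difference alone. The 233 rows at least 1.5-fold apart (39 higher, 194 lower) became 402 (95 and 307) with a pseudocount of 0.1 FPKM and 155 (21 and 134) with at least 5 FPKM required. Under the other alternatives run (no filter, merged rows, a median ratio of 0, intervals alone, 1.5-fold with intervals, a plain ratio of 2, and 1 row per gene, which was chosen after seeing the data) these counts stayed within 1.5 times. Of 144 values of named genes under alternatives, 12 moved by more than the deposited half-width and 0 changed sign. Medians of 15 of 40 lists changed sign in at least 1 alternative, with deposited medians of at most 0.0953 in size. Precision is limited by the deposited intervals, and the cause of wide Control intervals was not tested.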

Other observations

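Long non-coding RNA rows gave no call. Of 395 such rows, 216 were higher in HFOB and 179 lower, with a median log2 ratio of 0.02. Malat1, an abundant nuclear RNA, stood at 500 FPKM on chow (0 to 2608), 181 in HFLN and 298 in HFOB (0 to 636), and Snhg3, a host of small nucleolar RNA, at 42.9 and 33.0 FPKM.

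Over the 16608 rows of all kinds compared, 62 passed the rule for a call, beside 24 of the 12921 protein-coding rows among them. The other 38 called rows were not protein-coding: 20 had no gene symbol and 18 were other annotated RNA. Rows without a symbol held 42.2% of the summed FPKM on chow and 36.8% in HFOB.

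Rows that merge neighbouring genes were kept out of the counts. Among them, the haemoglobin row Hbb-bs with Hbb-b1 stood at 179 FPKM on chow, 98.2 in HFLN and 130 in HFOB, the row of Pdia4, a disulfide isomerase, with Mir704 at 279, 234 and 195, and the lysozyme row Lyz2 with Lyz1, known from macrophages, at 252, 236 and 337.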
